A study of Mus musculus with 9 samples.

Results

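The mouse genome holds 39 Hox genes, and all 39 were found among the 24444 gene symbols of the count table by the pattern of their names (Hoxa, Hoxb, Hoxc or Hoxd followed by a paralogue number). The family was chosen by its counts in these same libraries, low in the controls and high in the tumours, so the levels and folds of its members are given here as a description, and no p-value of a member is used as support. The libraries were bulk RNA sequencing of mouse cerebellum and of an orthotopic model of WNT-medulloblastoma, a childhood tumour of the hindbrain, with 3 libraries in each of 3 groups. The control group was normal cerebellum of CD1-nude mice, with no transgene given. The EV and MycT58A groups were microdissected GFP-positive regions of tumours that had grown from cells implanted into CD1-nude hosts and carrying Blbp-Cre together with Ctnnb1Ex3flx/flx, Trp53flx/flx and Pik3caE545K +/flx. Both tumour groups shared that genotype and differed in the added construct, labelled EV or MycT58A, the latter a Myc gene with a stabilising amino acid change. Blbp-Cre drives recombination in radial glia and other neural progenitors that use the Blbp (Fabp7) promoter, the CD1-nude host lacks a thymus and so most T cells, and the implanted cells differ from the controls in all of these alleles at once. The series calls the 3 libraries of a group biological replicates; how many tumours or cell lines of origin stand behind them is not given in the sources used here.

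Hox genes encode homeodomain transcription factors that tell cells where they lie along the head-to-tail axis. Mammals carry them in 4 clusters, HoxA to HoxD, and genes at one end of a cluster (low paralogue numbers) act in the hindbrain while genes at the other end (high numbers) act in the trunk, tail, limb and genital tract. The cerebellum arises from the front of the hindbrain, which forms ahead of the Hox territory, and Hox genes are known to be off there. Polycomb proteins keep the clusters silent, and retinoic acid, Cdx proteins and trithorax proteins are known to switch them on.

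The sequences below belong to the members and cluster transcripts on which the results turn: the microRNA next to Hoxb9, and the promoters of posterior HoxA genes that were high together and of Hoxb8, which differed from its neighbour Hoxb9. Mature miR-196a-5p is encoded by Mir196a-1 at chr11:96265187-96265208, 5′ to 3′ along the plus strand between Hoxb9 and Hoxb13, and also by Mir196a-2 in HoxC. Mature miR-196b-5p comes from Mir196b at chr6:52230129-52230150 on the minus strand, inside Hoxa9. Capitals mark the seed, bases 2 to 8, which both share; sequences are RefSeq's on GRCm38.p6.
miR-196a-5p: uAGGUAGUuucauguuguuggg
miR-196b-5p: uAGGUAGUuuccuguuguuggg
The Hoxb8 transcript holds the stretch of any Hox transcript that pairs best with miR-196a-5p, 21 of 22 bases, starting at base 2208 of its 2635 (GENCODE vM21). In that stretch, printed next, capitals mark the paired bases, counting only A with T or U and G with C. The lower-case g lies opposite a U of the seed and was not counted, so this stretch is not an exact seed match.
Hoxb8 site: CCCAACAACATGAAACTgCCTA
The exact 7-base seed match, ACTACCT on the sense strand, was present in the longest protein-coding transcript of 11 of 39 Hox genes (28.2%), compared with 16.6% of 20201 protein-coding genes. RefSeq's promoter table held 24 starts of 22 Hox genes, from 250 bases before to 50 after each start; Hoxb9 was not among them. Each promoter was searched on both strands for CTTTGAT and CTTTGAA (sites of the TCF/LEF partners of beta-catenin), CACGTG (the Myc E-box), TGATTNAT (Hox with Pbx), TTAAT (Hox), TATAAA and CCAAT, and capitals mark every match. The windows are chr6:52260831-52261130 for Hoxa13, chr6:52234890-52235189 for the more downstream start of Hoxa10 and chr6:52227321-52227620 for Hoxa9, all on the minus strand, and chr11:96281655-96281954 for Hoxb8 on the plus strand (GRCm38.p6).
Hoxa13: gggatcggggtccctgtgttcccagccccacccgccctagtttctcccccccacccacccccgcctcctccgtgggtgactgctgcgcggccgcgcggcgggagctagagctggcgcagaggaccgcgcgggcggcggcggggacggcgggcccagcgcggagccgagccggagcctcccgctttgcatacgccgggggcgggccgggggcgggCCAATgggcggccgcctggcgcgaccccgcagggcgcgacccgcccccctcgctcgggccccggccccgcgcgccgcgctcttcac
Hoxa10: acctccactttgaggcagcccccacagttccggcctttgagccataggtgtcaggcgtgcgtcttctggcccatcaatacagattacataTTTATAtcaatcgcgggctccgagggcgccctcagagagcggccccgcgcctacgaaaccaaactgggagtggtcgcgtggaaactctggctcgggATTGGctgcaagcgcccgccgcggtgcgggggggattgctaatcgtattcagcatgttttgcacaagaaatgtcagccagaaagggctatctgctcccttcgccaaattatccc
Hoxa9: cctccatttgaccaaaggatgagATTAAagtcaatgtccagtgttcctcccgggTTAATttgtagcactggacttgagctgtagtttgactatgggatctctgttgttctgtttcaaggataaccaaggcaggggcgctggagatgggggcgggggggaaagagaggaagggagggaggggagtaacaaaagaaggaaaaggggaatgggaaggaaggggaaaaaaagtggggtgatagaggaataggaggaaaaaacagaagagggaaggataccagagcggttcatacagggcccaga
Hoxb8: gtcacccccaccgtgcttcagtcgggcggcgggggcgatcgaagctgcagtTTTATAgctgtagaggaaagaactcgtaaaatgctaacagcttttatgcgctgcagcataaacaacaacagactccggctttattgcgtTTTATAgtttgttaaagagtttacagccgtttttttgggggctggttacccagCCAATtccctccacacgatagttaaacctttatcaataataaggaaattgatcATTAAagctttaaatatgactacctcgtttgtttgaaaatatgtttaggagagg
The Hoxa13 window held 1 CCAAT box, the Hoxa10 window a CCAAT box (ATTGG) and a TATA match (TTTATA), the Hoxa9 window TTAAT matches only, and the Hoxb8 window TATA, CCAAT and Hox matches. CCAAT was found in 15 of 24 Hox promoters (62.5%) and in 37.4% of all 32851 promoters. CACGTG was found in 5 Hox promoters (20.8%), against 7.15% of all. These were starts of Hoxd1, Hoxd4, Hoxd10, Hoxd11 and Hoxd13, and no HoxA or HoxB promoter searched held it. The other shares were 16.7% against 13.6% for TATAAA, 29.2% against 27.1% for TTAAT, 8.33% against 3.22% for TGATTNAT, 4.17% against 3.73% for CTTTGAT and 8.33% against 5.14% for CTTTGAA. The median ratio of observed to expected CpG was 0.626 over the Hox promoters and 0.384 over all, and the median GC content was 57.7% against 52.7%. These matches describe letters, and nothing about binding was measured.

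Total counts ranged from 16631523 to 30410089 per library, so 3 counts corresponded to 0.103 to 0.170 CPM, the usual depth-scaled count unit, here with edgeR's TMM factors. Myc itself did not follow the labels in every library: it was at 0.939, 1.59 and 32.0 CPM in the controls, 360, 19.9 and 761 CPM in EV, and 917, 858 and 726 CPM in MycT58A. The library labelled EV replicate 3 thus lay within the MycT58A range, and results that rest on it are given with and without it. Granule neuron markers summed to between 4283 and 5809 CPM in the controls, all 10 of them at or above 1 CPM, whereas the cortical gene Emx1 had no counts there and Tbr1 was under 1 CPM; a protocol text that speaks of cortex is set against those values. In the tumours the same 10 markers summed to between 84.2 and 231 CPM. Markers of pericytes and fibroblasts summed to between 303 and 377 CPM in the controls, 3494, 12042 and 8285 CPM in EV, and 1458, 1808 and 1640 CPM in MycT58A. Microglia and macrophage markers summed to 484, 641 and 547 CPM in EV and to 190, 88.1 and 130 CPM in MycT58A. Neural crest and sympathetic neuron markers summed to 36.3, 74.1 and 51.3 CPM in EV and to 4.38, 2.62 and 2.60 CPM in MycT58A, beside 84.8 to 142 CPM in the controls. Of these 7 genes only 3 reached 1 CPM in each control, 3, 2 and 4 in EV and 2, 1 and 1 in MycT58A. Foxd3 had no counts in any tumour library. The sum thus rests on a few genes and does not by itself mark such cells. Epithelial and keratinocyte markers summed to 20.6, 38.8 and 266 CPM in EV and to between 47.6 and 64.6 CPM in MycT58A. Brainstem motor and visceral neuron markers summed to 180, 79.9 and 339 CPM in EV and 147, 156 and 93.2 CPM in MycT58A, with Mnx1 at 0 in all tumours; Prph, a filament gene, made up most of that in 5 of the 6 tumour libraries. Their part in the Hox levels was not tested. In bulk libraries a level cannot separate more cells of a type from more RNA per cell.

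Hox transcripts were near the limit of detection in normal cerebellum and present in every tumour library, far more in EV than in MycT58A. The 39 genes together gave 8, 16 and 14 counts in the controls, 3081, 827 and 3352 in EV, and 364, 350 and 210 in MycT58A. Their summed level was 0.327, 0.708 and 0.653 CPM in the controls, 105, 35.1 and 190 CPM in EV, and 13.1, 12.4 and 8.94 CPM in MycT58A. The 3 groups did not overlap: every MycT58A library lay above every control and below every EV library. The highest control level of any member was 0.140 CPM, from 3 counts, and 23 members had no count in any control. Group means reached 1 CPM for 0 members in the controls, 19 in EV and 1 in MycT58A. Without the library labelled EV replicate 3, the EV number was 7. Hoxa10, Hoxa13 and Hoxb9 were at or above 1 CPM in every EV library, and Hoxb9 alone in every MycT58A library. Of the 39 members, 24 reached 1 CPM in at least 1 library, and 1, Hoxc12, had no counts at all.

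**Figure D1:**
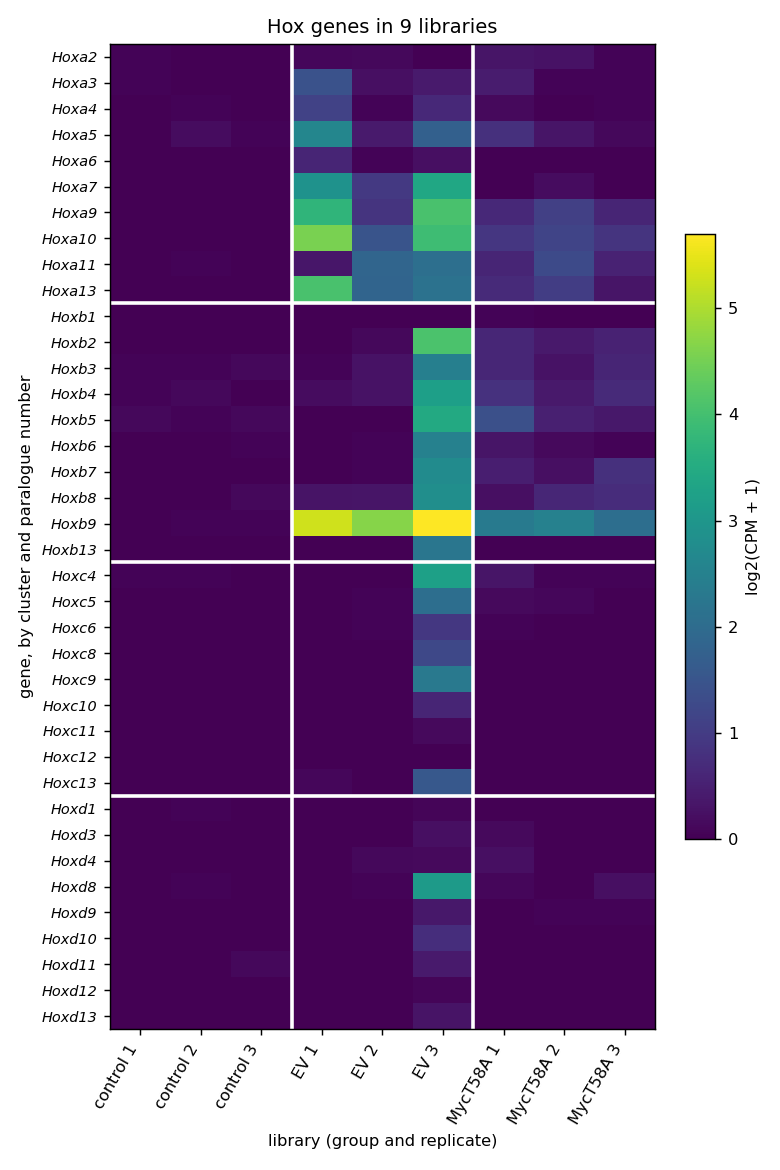
Level of the Hox genes shown (rows, by cluster and paralogue number) in each of the 9 libraries (columns), coloured by log2(CPM + 1); white lines separate clusters and groups. Hoxb9 stands out in all 6 tumour libraries and is much brighter in EV than in MycT58A. Most high-numbered HoxA genes are brightest in EV replicate 1 and the library labelled EV replicate 3, and dim in EV replicate 2. Several HoxC genes and Hoxd8 stand out only in the library labelled EV replicate 3.

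The EV libraries differed among themselves in which clusters contributed. HoxA summed to 66.7, 9.50 and 49.8 CPM in EV and to 4.03, 5.53 and 2.26 CPM in MycT58A. HoxB summed to 38.6, 25.4 and 110 CPM in EV and to 8.30, 6.74 and 6.43 CPM in MycT58A. HoxA was thus the larger cluster in EV replicate 1 and HoxB in the other 5 tumour libraries. HoxC was at 0.0684 and 0.0849 CPM in EV replicates 1 and 2 but at 20.4 CPM in the library labelled EV replicate 3. HoxD was at 0, 0.127 and 9.52 CPM in the same order. In MycT58A neither HoxC nor HoxD exceeded 0.395 CPM in any library. The library labelled EV replicate 3 had 21 members at or above 1 CPM, EV replicate 1 had 9 and EV replicate 2 had 4. It held 28 of the 39 members at their highest level, and for 13 it was the only library at or above 1 CPM. Hoxa3 and Hoxa4 passed 1 CPM in EV replicate 1 alone.

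**Figure D2:**
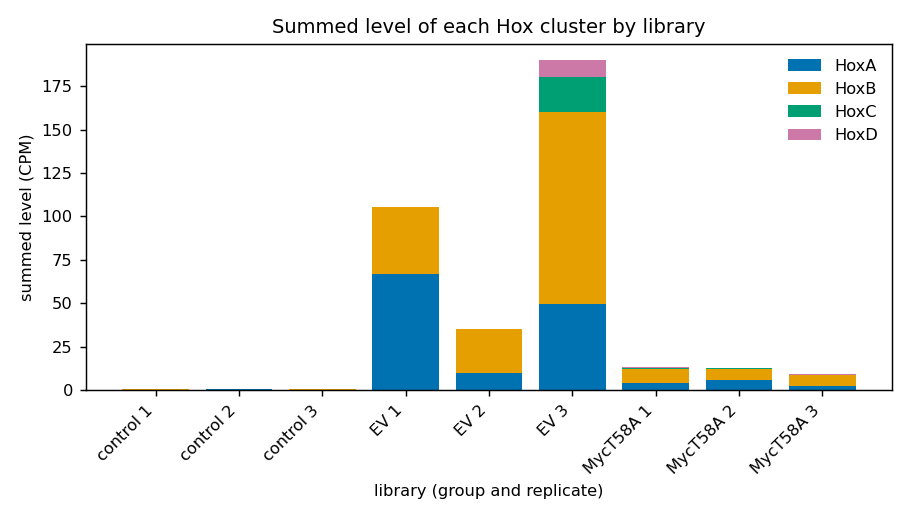
Summed level (CPM) of the HoxA, HoxB, HoxC and HoxD clusters in each library, as stacked bars from 0. EV libraries reach 105, 35.1 and 190 CPM and MycT58A libraries 8.94 to 13.1 CPM; HoxC and HoxD are visible in the library labelled EV replicate 3.

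Hoxb9 was the most abundant Hox transcript per length in every tumour library but gave only 0, 1 and 1 counts in the controls. It encodes a trunk factor of the thoracic and lumbar levels and lies at chr11:96271457-96276595 on the plus strand of mm10. It was measured at 38.2, 24.5 and 50.9 CPM in EV (37.9 ± 13.2, SD, n = 3) and at 3.99, 4.64 and 3.15 CPM in MycT58A (3.93 ± 0.748, SD, n = 3). The groups did not overlap. EV was 1262-fold above control, with a 95% counting interval of 349 to 10425 because control had 2 counts. MycT58A was 136-fold above control (37.4 to 1129), and EV was 9.64-fold above MycT58A. Hoxb9 alone made up 36.3% of all Hox counts in EV replicate 1 (Wilson 95% interval 34.6 to 38.0), 69.9% in EV replicate 2 (66.7 to 72.9) and 26.8% in the library labelled EV replicate 3 (25.3 to 28.3). In MycT58A its shares were 30.5%, 37.4% and 35.2%. These intervals cover counting error only.

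The HoxB genes next to Hoxb9 did not share its pattern. Hoxb8, its neighbour on the anterior side, is a trunk factor that also acts in blood cells. It was at 0.239, 0.255 and 6.06 CPM in EV and at 0.180, 0.532 and 0.639 CPM in MycT58A. The whole block Hoxb2 to Hoxb8 summed to 0.411 and 0.849 CPM in EV replicates 1 and 2, to 55.4 CPM in the library labelled EV replicate 3 and to 4.28, 2.09 and 3.28 CPM in MycT58A. All 7 genes of this block were at or above 4.53 CPM in that 1 EV library. Every MycT58A library lay above EV replicates 1 and 2 for the summed block and below that library. Hoxb2, a hindbrain patterning factor, was at 0, 0.0849 and 16.1 CPM in EV and at 0.539, 0.319 and 0.468 CPM in MycT58A, with no counts in the controls. Hoxb3 was at 0.0342, 0.212 and 4.53 CPM in EV and at 0.539, 0.213 and 0.511 CPM in MycT58A. Hoxb7, which acts in the trunk, was at 0, 0.0424 and 5.72 CPM in EV and 0.395, 0.177 and 0.724 CPM in MycT58A. For these genes EV and MycT58A overlapped, and the order of the group means was set by 1 EV library, which held 99.5% of the EV sum for Hoxb2, 94.8% for Hoxb3 and 99.3% for Hoxb7. Hoxb4, Hoxb5 and Hoxb6 followed the same course, at 8.33, 10.02 and 4.70 CPM in that library and at most 0.212 CPM in the other EV libraries, with Hoxb5 at 1.62 CPM in MycT58A replicate 1. Hoxb13, a tail and prostate factor that lies apart at the posterior end, had 66 counts (3.74 CPM) in the library labelled EV replicate 3 and no counts in the other 8. Hoxb1, the most anterior member, had 1 count in all, in MycT58A replicate 1.

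The posterior HoxA genes, Hoxa7 to Hoxa13, were also present in all 3 EV libraries. They pattern the trunk, limb and urogenital tract, and Hoxa9 and Hoxa10 also act in blood progenitors. As a block they summed to 57.1, 8.70 and 46.2 CPM in EV and to 2.55, 4.96 and 2.04 CPM in MycT58A, and had 1 count in the 3 controls together. Hoxa10 was at 22.4, 1.78 and 14.2 CPM in EV and at 0.863, 1.24 and 0.809 CPM in MycT58A. With no counts in the controls, it was at least 292-fold higher in EV and at least 22.2-fold higher in MycT58A, taking 3 counts over the control group as the limit. The EV level of Hoxa10 was 13.2-fold that of MycT58A, and the groups did not overlap, although EV replicate 2 was near the MycT58A libraries. Without EV replicate 1 the ratio for Hoxa10 was 8.24. Hoxa13, the gene at the posterior end, was at 15.7, 2.55 and 3.45 CPM in EV and at 0.611, 1.06 and 0.255 CPM in MycT58A. Its EV level was at least 165-fold above control and 11.2-fold above MycT58A, again without overlap. Without EV replicate 1, the EV mean of Hoxa13 was 3.00 CPM in place of 7.22 CPM, 4.66-fold above MycT58A. Hoxa9 was at 12.3, 0.806 and 15.7 CPM in EV and at 0.575, 1.10 and 0.511 CPM in MycT58A. Here EV replicate 2 fell inside the MycT58A range, while the mean was 13.2-fold higher in EV and at least 220-fold above control.

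Among the tested members, Hoxa7 had the highest ratio of EV to MycT58A and Hoxa11 the lowest. Hoxa7 was at 6.43, 0.933 and 9.57 CPM in EV and at 0, 0.142 and 0 CPM in MycT58A, from 4 counts, so that EV was 119-fold higher and the groups did not overlap. The ratio for Hoxa7 was 77.9 without the library labelled EV replicate 3 and 79.6 without MycT58A replicate 1 or 3, and without MycT58A replicate 2 no MycT58A count was left. Hoxa11, which acts in limb and uterus, was at 0.274, 2.63 and 3.23 CPM in EV and at 0.503, 1.42 and 0.468 CPM in MycT58A. The means differed 2.57-fold, with overlapping groups. With 1 tumour library left out, the Hoxa11 ratio ranged from 1.82 (without the library labelled EV replicate 3) to 4.21 (without MycT58A replicate 2). EV replicate 1, which had the highest Hoxa10 and Hoxa13, had the lowest Hoxa11 of all 6 tumour libraries. Hoxa5, an anterior trunk factor that acts in lung, was at 0, 0.133 and 0.0466 CPM in the controls, at 5.10, 0.339 and 2.38 CPM in EV and at 0.719, 0.248 and 0.0852 CPM in MycT58A. Its tumour groups overlapped. Other anterior HoxA genes were lower still. Hoxa3 and Hoxa4 reached 1.71 and 1.16 CPM in EV replicate 1 and at most 0.566 CPM elsewhere. Hoxa6 peaked at 0.513 CPM in the same library. Hoxa2 stayed at or below 0.252 CPM in every library and was the HoxA member whose MycT58A mean was above its EV mean, by 3.31-fold from 14 and 4 counts. Reads of Hoxa3 could be shared with Hoxa4, Hoxa5 and Hoxa6, whose annotated bodies it overlaps.

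HoxC and HoxD were nearly silent outside 1 library. Hoxc4, a neck-level factor, was at 0, 0 and 8.44 CPM in EV and at 0.252, 0.0355 and 0.0426 CPM in MycT58A. Hoxc9, a thoracic factor, was at 0, 0 and 3.96 CPM in EV and had no counts in the other 2 groups. Hoxc5, whose annotated body overlaps Hoxc6, Hoxc8, Hoxc9 and Hoxc10, was at 0, 0.0424 and 3.17 CPM in EV and at 0.108, 0.0709 and 0 CPM in MycT58A. In each case the library labelled EV replicate 3 stood alone. In that library Hoxc13, known for its role in hair and nail, was at 1.98 CPM, Hoxc8 at 1.36 CPM, Hoxc6 at 0.906 CPM, Hoxc10 at 0.510 CPM and Hoxc11 at 0.113 CPM. Hoxd8, a trunk factor, was at 0, 0.0424 and 7.59 CPM in EV and at 0.0719, 0 and 0.170 CPM in MycT58A. The other 8 HoxD genes together gave 0, 2 and 34 counts in EV and 8, 1 and 1 in MycT58A. Among them Hoxd10 was at 0.680 CPM and Hoxd9 at 0.283 CPM in the library labelled EV replicate 3, and both were at or below 0.0426 CPM in all others. Hoxd11, Hoxd13, Hoxd3, Hoxd4, Hoxd1 and Hoxd12 were at 0.340, 0.227, 0.170, 0.113, 0.0566 and 0.0566 CPM there. That same library had the highest sum of epithelial markers, 266 CPM, with Krt5 at 129 CPM; their part in its HoxC and HoxD levels was not tested.

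Along the clusters, compared as CPM per kilobase of exon, the levels were not even. In HoxB, Hoxb9 led every tumour library, at 14.8, 9.53 and 19.8 CPM per kb in EV and 1.55, 1.80 and 1.22 CPM per kb in MycT58A. The next HoxB gene by the tumour mean, Hoxb2, reached 4.61 CPM per kb in the library labelled EV replicate 3 and at most 0.0243 CPM per kb in the other EV libraries. In HoxA the leading gene was Hoxa10 in EV replicate 1 (6.85 CPM per kb), Hoxa11 in EV replicate 2 (1.15 CPM per kb) and Hoxa10 in the library labelled EV replicate 3 (4.35 CPM per kb). Over the 11 HoxA genes, the rank correlation of paralogue number with CPM per kb was 0.54, 0.81 and 0.81 in the EV libraries and 0.41, 0.72 and 0.69 in the MycT58A libraries; the genes share libraries and some overlap, so this is a description with no test. In the MycT58A libraries the HoxA leaders were Hoxa5, Hoxa11 and Hoxa10. HoxC ran the other way in the library labelled EV replicate 3, with a rank correlation of -0.60 and Hoxc4 leading at 3.29 CPM per kb, and Hoxd8 led HoxD there at 2.77 CPM per kb. By paralogue group, group 9 had the highest summed CPM in all 6 tumour libraries, at 50.5, 25.3 and 70.9 CPM in EV and 4.56, 5.78 and 3.70 CPM in MycT58A. Group 12 reached no more than 0.0566 CPM.

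**Figure D3:**
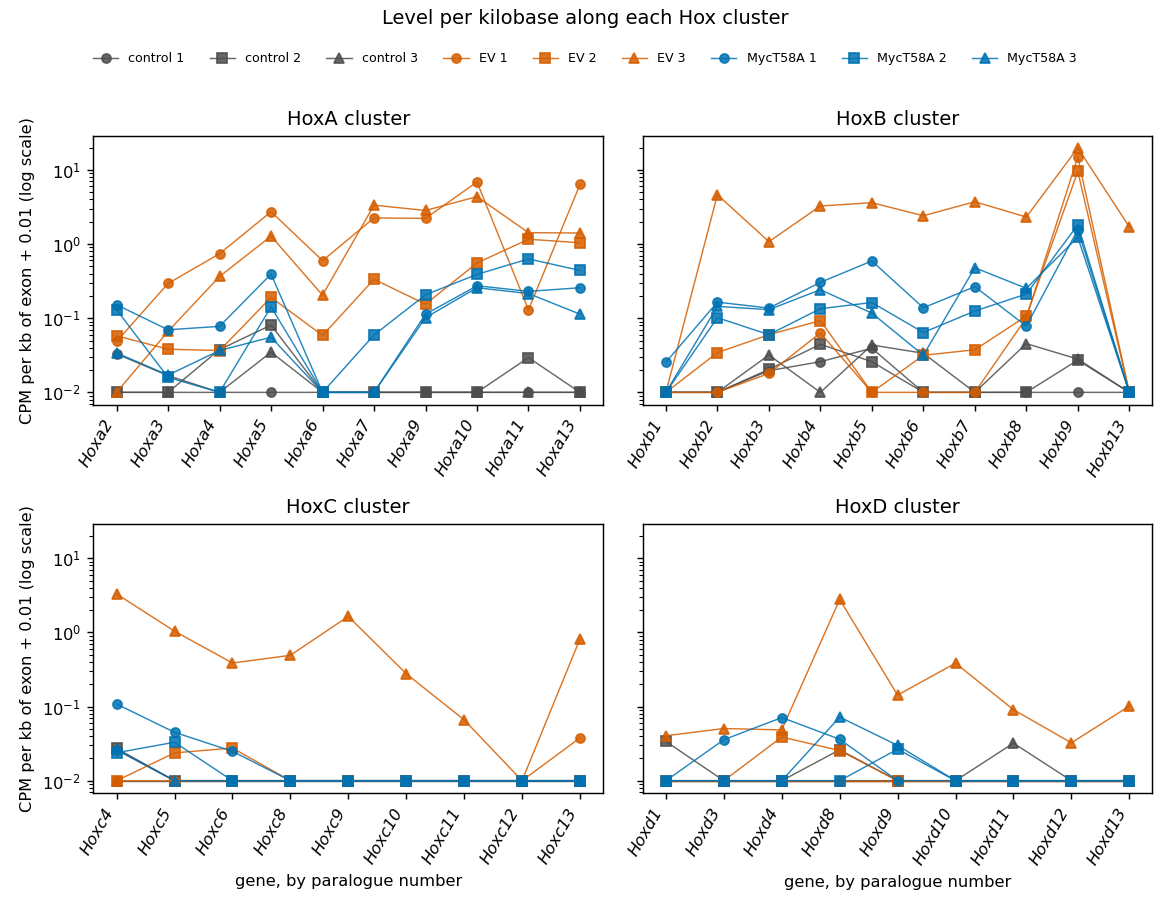
Level of the Hox genes shown, per kilobase of exon (CPM per kb + 0.01, log scale) in order of paralogue number, 1 panel per cluster and 1 line per library. EV lines climb toward the high-numbered HoxA genes, all 6 tumour lines peak at Hoxb9, and the library labelled EV replicate 3 stands alone in HoxC and HoxD.

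In the edgeR fit over all genes, 11 of the 39 members had enough counts to be tested, 6 of HoxA and 5 of HoxB, and none of HoxC or HoxD. A member that is silent in the controls could pass the count filter only through the tumours, so these 11 had to differ in one direction and are not all members. In EV against control 11 were higher and 0 lower at an adjusted p under 0.05, where 30.7% of the 15171 genes tested were called higher and 26.3% lower. In MycT58A against control 5 were higher (Hoxa9, Hoxa10, Hoxa11, Hoxa13 and Hoxb9) and 0 lower, where 31.2% of genes were called higher and 31.0% lower. In MycT58A against EV 2 were lower (Hoxa7 and Hoxb9) and 0 higher, where 5.02% of genes were called lower and 3.28% higher. Another 4 of the 11 were lower at an unadjusted edgeR p under 0.05 only. The share of all genes under that unadjusted level was not counted, so nothing is drawn from these 4. Both tumour comparisons use the same control libraries. The median fitted log2 fold change of the 11 was 10.03 in EV against control, 5.35 in MycT58A against control and -3.27 in MycT58A against EV. The medians over all genes tested were 0.14, -0.02 and -0.04. Medians were also taken over the observed log2 folds of all 11, with bounds for the 5 members that had no control counts. The first 2 medians then became 6.95 and 3.88.

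Fitted folds and their SEs are given for the members described above. Each SE, here and below, is the size of the fitted log2 fold change divided by the square root of edgeR's F statistic. Hoxb9 had log2 fold changes of 10.10 (SE 0.64) in EV against control, 6.83 (SE 0.61) in MycT58A against control and -3.27 (SE 0.42) in MycT58A against EV. Hoxa10 had 11.28 (SE 1.53), 7.57 (SE 1.57) and -3.71 (SE 0.91) in the same order. Hoxa13 had 10.46 (SE 1.54), 6.98 (SE 1.59) and -3.47 (SE 0.93). Fitted values of genes without control counts, and so their SEs, depend on the prior count, so the bounds above are the safer reading for these. Hoxa7 differed most between the tumour groups, at -6.70 (SE 1.45), and Hoxa11 least, at -1.34 (SE 0.91). Hoxb2 and Hoxb3 had values of -3.59 (SE 2.11) and -1.89 (SE 1.32) in MycT58A against EV, and both turned positive, to 3.35 and 1.79, without the library labelled EV replicate 3. Limma-voom also gave them positive values, 0.81 and 0.27. Without that library the number called higher in EV against control was 7, as it also was without control replicate 1, and in MycT58A against control it was 9. The 2 members called lower in MycT58A against EV dropped to 0 without any 1 of the 3 MycT58A libraries, and numbered 7 without EV replicate 2. Over all genes, the calls in that comparison went from 1259 to 70, 58 and 36 without MycT58A replicate 1, 2 and 3. Without EV replicate 2 they numbered 2565.

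**Figure D4:**
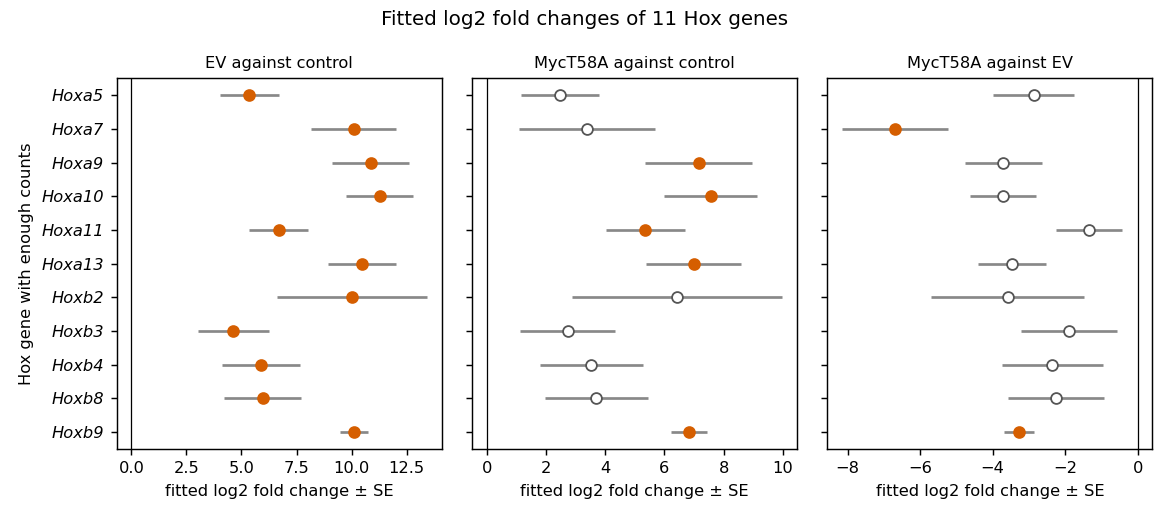
Fitted log2 fold change (point) and SE (bar) of the 11 tested Hox genes in the 3 comparisons, filled where the edgeR adjusted p was under 0.05. The SE is the size of the fold change divided by the square root of edgeR's F statistic. EV values range from 4.62 to 11.28 above control, and the values of MycT58A against EV range from -6.70 to -1.34.

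Genes lying beside the clusters, which the naming rule does not take in, were also measured. Evx1, a homeobox gene of spinal cord interneurons and the posterior embryo, lies 52618 bp beyond Hoxa13. It was at 0, 0.0443 and 0 CPM in the controls, 24.0, 45.5 and 29.96 CPM in EV and 13.5, 8.05 and 11.8 CPM in MycT58A. With 1 control count, Evx1 also passed the count filter only through the tumours. It rose by a log2 fold change of 10.71 (SE 0.71, edgeR adjusted p = 2.2e-05) in EV and 9.14 (SE 0.70, edgeR adjusted p = 3.27e-05) in MycT58A. The tumour groups did not overlap, but their difference of -1.58 (SE 0.41) missed the threshold (edgeR adjusted p = 0.0521). Unlike the Hox sum, Evx1 was highest in EV replicate 2. Its antisense partner Evx1os, chosen for its position after its values were seen, was at 25.5, 82.0 and 20.1 CPM in EV and 10.7, 9.64 and 9.92 CPM in MycT58A, from 2 counts in the controls. Without strand information the reads of the 2 genes cannot be told apart where they overlap.

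The noncoding list held 22 genes, of which 18 were in the table and 3 had enough counts to be tested. With at most 1 control count each, these 3 passed the count filter only through the tumours, so against control they could differ in 1 direction only. In EV 3 were called higher, where 30.7% of all genes were, and in MycT58A 2 were, where 31.2% were. In MycT58A against EV 1 was lower, where 5.02% of all genes were. Mira, which overlaps Hoxa7, was at 7.05, 0.933 and 10.3 CPM in EV and at 0.0359, 0.106 and 0 CPM in MycT58A. It rose in EV (log2 fold change 8.26, SE 1.41, edgeR adjusted p = 0.00138) and was lower in MycT58A than in EV by -6.81 (SE 1.24, edgeR adjusted p = 0.0212), close to the values of Hoxa7 itself. Hoxa11os, antisense to Hoxa11, had 9, 74 and 54 counts in EV and 19, 42 and 14 in MycT58A, beside 8, 62 and 57 and then 14, 40 and 11 for Hoxa11. The pair could share reads. Mira lost its call in MycT58A against EV without control replicate 3 or any 1 MycT58A library. Halr1, on the anterior side of HoxA, rose in EV by 5.24 (SE 1.55, edgeR adjusted p = 0.019) and in MycT58A by 4.86 (SE 1.56, edgeR adjusted p = 0.0238) from levels of at most 1.61 CPM, and lost the first call without control replicate 1 or 2, and the second also without MycT58A replicate 3. Hottip, a noncoding RNA known to keep posterior HoxA genes active, had 314, 18 and 6 counts in EV and 3 or 4 in each MycT58A library. Its highest library, EV replicate 1, was also the one with the highest Hoxa13. In the library labelled EV replicate 3, however, Hottip was at 0.340 CPM while Hoxa7 to Hoxa13 summed to 46.2 CPM.

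Beside Hoxb9 lay 2 transcripts with a like distribution. Gm53, a noncoding gene 6973 bp away and also chosen after its values were seen, was at 7.90, 3.95 and 4.30 CPM in EV and 0.791, 1.28 and 0.426 CPM in MycT58A, with no counts in the controls, which made it at least 123-fold higher in EV and at least 19.0-fold higher in MycT58A. The EV mean of Gm53 was 6.48-fold that of MycT58A, without overlap. Mir196a-1, the hairpin gene whose mature sequence is printed above, had 29, 4 and 11 counts in EV and 2, 3 and 2 in MycT58A, and none in the controls. These are reads at the hairpin locus in a library of longer RNA, not the mature microRNA. Gm11538, 6007 bp from Hoxb13, had 37 counts, all in the library labelled EV replicate 3, as Hoxb13 did. Near HoxC and HoxD, Hotair and Evx2 reached at most 0.113 and 0.108 CPM in the tumour libraries.

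**Figure D5:**
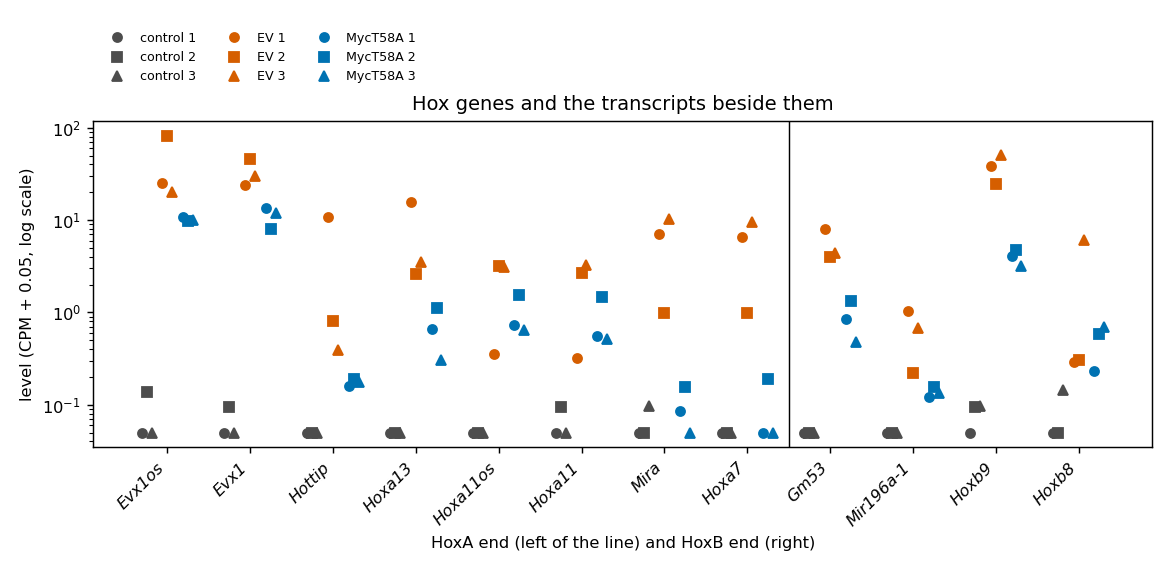
Level (CPM + 0.05, log scale) of transcripts beside HoxA (left of the line) and HoxB (right) with the Hox genes next to them, 1 point per library. Evx1 and Evx1os are high in all 6 tumour libraries, and Gm53 and Mir196a-1 lie below Hoxb9 with EV above MycT58A.

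The protein-coding flanking genes as a list did not move one way. Of 22 tested, 8 rose and 4 fell in EV against control, beside 30.7% and 26.3% of all genes. In MycT58A against control 8 rose and 4 fell, beside 31.2% and 31.0% of all genes. In MycT58A against EV 2 rose and 2 fell, beside 3.28% and 5.02% of all genes. The median log2 fold change was 0.20 in EV against control, against 0.14 over all genes. Apart from Evx1, the largest rise in EV among those named by the rule was that of Copz2, a vesicle coat gene on the HoxB side, by 2.72 (SE 0.44, edgeR adjusted p = 0.00102). Of the flanking genes named by the rule, only Evx1 lay within 60000 bp of a cluster. Lnpk1, on the HoxD side, and Atf2 fell in EV by 1.19 (SE 0.21, edgeR adjusted p = 0.00157) and by 1.10 (SE 0.19, edgeR adjusted p = 0.00168). Atp5g2 and Nfe2l1, a mitochondrial and a stress response gene, moved the same way in both tumour groups: Atp5g2 rose by 1.55 (SE 0.23, edgeR adjusted p = 0.000603) and Nfe2l1 fell by 0.93 (SE 0.17, edgeR adjusted p = 0.00146) in MycT58A. Skap2, the neighbour of HoxA on its anterior side, was at 17.2, 16.9 and 11.1 CPM in EV and at 3.49, 1.84 and 1.79 CPM in MycT58A, and was lower in MycT58A by -2.67 (SE 0.36, edgeR adjusted p = 0.00997). Copz2 was also lower in MycT58A than in EV, by -2.29 (SE 0.43, edgeR adjusted p = 0.0226), while Hnrnpa3 and Atf2 were higher, by 0.98 (SE 0.16, edgeR adjusted p = 0.0163) and 0.99 (SE 0.19, edgeR adjusted p = 0.0249).

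TALE proteins bind DNA together with Hox proteins. Of 9 tested, 2 rose and 2 fell in EV, beside 30.7% and 26.3% of all genes. In MycT58A 3 rose and 2 fell, beside 31.2% and 31.0% of all genes. Meis2 rose and Pknox2 fell in both tumour groups. Meis2 went from 2.61, 3.19 and 1.26 CPM in the controls to 20.05, 10.4 and 29.5 CPM in EV and 39.9, 40.1 and 42.4 CPM in MycT58A. Its log2 fold changes were 3.08 (SE 0.46, edgeR adjusted p = 0.000703) and 4.11 (SE 0.48, edgeR adjusted p = 0.000176). The MycT58A level of Meis2 thus lay above every EV library, the reverse of the Hox order, but their difference of 1.03 (SE 0.42) was not past the threshold (edgeR adjusted p = 0.139). Pknox2 had log2 fold changes of -3.32 (SE 0.80, edgeR adjusted p = 0.00746) and -3.72 (SE 0.81, edgeR adjusted p = 0.00396). Pbx3 fell in EV by 0.74 (SE 0.28, edgeR adjusted p = 0.0473), and in MycT58A Pknox1 rose by 0.74 (SE 0.23, edgeR adjusted p = 0.0207) and Meis3 fell by 2.68 (SE 0.54, edgeR adjusted p = 0.00263). The call of Pbx3 was lost without any 1 of 7 libraries (all but control replicate 3 and the library labelled EV replicate 3), and that of Pknox1 without any 1 of 5 (control replicates 1 and 3 and the MycT58A libraries). None of the 9 was called in MycT58A against EV, where 8.30% of all genes were called in either direction.

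Retinoic acid genes, which make, carry and read the vitamin A signal that activates Hox clusters, numbered 19, of which 16 had enough counts to be tested. In EV 8 rose and 1 fell, beside 30.7% and 26.3% of all genes, with a median log2 fold change of 1.88. In MycT58A 8 rose and 1 fell, beside 31.2% and 31.0% of all genes, with a median of 1.49. The lists were not tested against other genes. Stra6, the cell surface receptor for retinol-binding protein, was at 1.88, 3.89 and 2.56 CPM in the controls, 251, 365 and 583 CPM in EV and 147, 181 and 93.6 CPM in MycT58A. The rise of Stra6 was 7.17 (SE 0.51, edgeR adjusted p = 2.83e-05) in EV and 5.66 (SE 0.48, edgeR adjusted p = 4.56e-05) in MycT58A. Rarg, a retinoic acid receptor, rose by 3.49 (SE 0.39, edgeR adjusted p = 0.000187) in EV and 2.05 (SE 0.37, edgeR adjusted p = 0.00159) in MycT58A. Rdh10, which makes retinaldehyde, rose in MycT58A by 3.48 (SE 0.42, edgeR adjusted p = 0.000197). Rbp4, the carrier in blood, fell in EV by 3.85 (SE 1.29, edgeR adjusted p = 0.0309) and lost that call without any 1 of 4 libraries (control replicates 2 and 3, EV replicate 1 and the library labelled EV replicate 3). Dhrs3, a retinaldehyde reductase, fell in MycT58A by 1.43 (SE 0.43, edgeR adjusted p = 0.0179), a call lost without MycT58A replicate 3.

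Between the tumour groups 3 of the 16 retinoic acid genes were lower in MycT58A and 0 higher, where 5.02% of all genes were lower and 3.28% higher. Aldh1a3, which makes retinoic acid, was at 50.7, 15.4 and 114 CPM in EV and at 10.6, 6.27 and 6.22 CPM in MycT58A, a difference of -2.96 (SE 0.65, edgeR adjusted p = 0.0329). Rarg differed by -1.44 (SE 0.36, edgeR adjusted p = 0.0467) and Rara by -0.98 (SE 0.24, edgeR adjusted p = 0.0424). The groups did not overlap for any of these 3. Aldh1a3 had the same order over the EV libraries as the Hox sum, highest in the library labelled EV replicate 3 and lowest in EV replicate 2. A link between the 3 genes and the Hox levels was not tested, and 3 libraries are too few to judge an order. Each of the 3 calls was lost without any 1 control or any 1 MycT58A library.

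Direct regulators of Hox genes were mostly too low to test: 4 of 11 were. Egr2, which sets up hindbrain segments, and Gbx2, which acts at the front of the hindbrain, were called higher in both tumour groups, from 5 and 8 control counts, so that both passed the count filter only through the tumours. Egr2 reached at most 0.647 CPM, and its EV call was lost without EV replicate 1 or any 1 control. Gbx2 was at 0.274, 6.79 and 0.0566 CPM in EV and at 4.78, 5.81 and 3.83 CPM in MycT58A, and its EV call was lost without any 1 library other than EV replicate 1 and the library labelled EV replicate 3. Without EV replicate 2 its log2 fold change in EV was 0.61, and its MycT58A call was lost without control replicate 2 or 3. The posterior regulator Cdx2 had 14 counts in the library labelled EV replicate 3 (0.793 CPM), and Vgll2, a cofactor gene on the same list, had 393 (22.3 CPM); both were named after their values were seen and had at most 1 count elsewhere.

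Chromatin regulators were called about as often as all genes, of which 57.0% were called in either direction in EV against control and 62.2% in MycT58A against control. Of 23 Polycomb genes, 9 rose and 4 fell in EV and 10 rose and 6 fell in MycT58A. Ezh2, the main methyltransferase for the silencing mark H3K27me3, was at 9.10, 8.19 and 11.1 CPM in the controls, 110, 48.0 and 117 CPM in EV and 147, 140 and 137 CPM in MycT58A. Its rise was 3.27 (SE 0.34, edgeR adjusted p = 0.000127) in EV and 3.90 (SE 0.35, edgeR adjusted p = 5.84e-05) in MycT58A. Cbx2 rose by 3.67 (SE 0.46, edgeR adjusted p = 0.000286) in EV, whereas Cbx7, another reader of that mark, fell by 3.47 (SE 0.25, edgeR adjusted p = 2.83e-05). Ezh1 fell by 1.57 (SE 0.18, edgeR adjusted p = 0.00019). In MycT58A against EV Phc1 and Bmi1 were higher, by 1.10 (SE 0.22, edgeR adjusted p = 0.0249) and 0.78 (SE 0.16, edgeR adjusted p = 0.0267), and Phf1 was lower, by -1.93 (SE 0.43, edgeR adjusted p = 0.0352). Of 15 trithorax and demethylase genes, 5 rose and 4 fell in EV and 5 rose and 3 fell in MycT58A. Mllt3, a partner in MLL complexes, rose by 1.90 (SE 0.22, edgeR adjusted p = 0.000218) in EV, and Kdm6b, which removes H3K27me3, rose by 1.70 (SE 0.21, edgeR adjusted p = 0.000253). Kmt2c and Brpf1 fell in EV by 1.31 (SE 0.23, edgeR adjusted p = 0.00145) and by 0.87 (SE 0.16, edgeR adjusted p = 0.00178). Ash2l, a core subunit of the H3K4 methyltransferases, rose in MycT58A by 2.31 (SE 0.25, edgeR adjusted p = 0.000133). Psip1 was higher in MycT58A than in EV by 1.11 (SE 0.24, edgeR adjusted p = 0.033). The calls of Phc1, Bmi1, Phf1 and Psip1 in MycT58A against EV were lost without any 1 control or any 1 MycT58A library.

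Genes of the head end, which lie ahead of the Hox territory in the embryo, were measured for contrast. Of 14, 6 were tested. Otx1 and Emx2, forebrain factors, were higher in both tumour groups, Otx1 by 7.13 (SE 1.25, edgeR adjusted p = 0.00157) in EV. With 4 and 0 control counts, both passed the count filter only through the tumours, so the direction was fixed. Emx2 was at least 149-fold higher in EV and at least 223-fold higher in MycT58A. It was at 2.39, 15.4 and 1.87 CPM in EV and 10.7, 7.27 and 11.2 CPM in MycT58A. Pax2 and En1, which mark the midbrain-hindbrain boundary and cerebellar cells, fell in both tumour groups. Pax2 was at 9.23, 9.96 and 9.51 CPM in the controls, 0, 0 and 0 in EV and 0.216, 0 and 0.255 CPM in MycT58A, with the controls at least 225-fold above EV; it passed the count filter through the controls. En1 fell by 6.28 (SE 1.31, edgeR adjusted p = 0.00382) in EV. En2 fell in EV by 2.66 (SE 0.93, edgeR adjusted p = 0.0363), a call lost without any 1 library other than EV replicates 1 and 2. None of the 6 was called in MycT58A against EV. Over all companion lists 98 genes were tested, of which 40 rose and 18 fell in EV against control, 41 rose and 18 fell in MycT58A against control, and 5 rose and 8 fell in MycT58A against EV. The shares of all genes called higher and lower were 30.7% and 26.3%, 31.2% and 31.0%, and 3.28% and 5.02% in these comparisons. All 13 of the last group lost their calls without MycT58A replicate 2 and without MycT58A replicate 3. All but Skap2 also lost them without MycT58A replicate 1, and 8, 10 and 9 of the 13 without control replicate 1, 2 and 3. Calls over all genes also fell in these fits, from 1259 to between 36 and 363.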

How the data were processed

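The deposited table held whole-number counts of reads per gene for 9 libraries and 24444 symbols, made by the authors and not normalized, judged from its values. Reads were processed with bcl2fastq and TopHat, and edgeR was used, on mm10, per the submitters' processing notes; the sources used here give no version, read counter, annotation or strand setting. No column of the table belonged to an unlisted sample (0).

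The Hox members and the companion and marker lists were chosen with earlier results of these data known. Counts were fitted in 1 model of all 9 libraries, with 1 mean per group and 6 residual degrees of freedom, by edgeR 4.0.16 quasi-likelihood tests in R 4.3.3 after TMM scaling and filterByExpr (minimum count 10, minimum total 15), which kept 15171 genes; 4711 had no counts. P-values were adjusted over all of them by Benjamini and Hochberg, with a threshold of 0.05. SEs were derived from the fitted log2 fold change and the F statistic of the quasi-likelihood test. CPM used TMM-scaled library sizes, and CPM per kb the union of exons in GENCODE vM21. Folds against a group with no counts use 3 counts over that group as the limit, and folds on 1 to 3 counts carry an exact counting interval. Alternatives were RLE scaling, library size alone, 2 other count filters, a fit of the 2 groups compared, DESeq2 1.42.0, limma-voom (limma 3.58.1) and each library left out in turn. The fit was tested on simulated counts. Named Hox genes were the 3 highest per kb in each cluster and the extreme fold changes past the threshold; other members are summarised, and Evx1os, Gm53, Gm11538, Hottip, Mir196a-1, Cdx2, Vgll2 and Myc were named after their values were seen. From each companion list and comparison the 2 genes of smallest p in each direction were named, or all where 1 to 3 passed, and those described keep to that rule apart from the exceptions stated. Hoxa3 with Hoxa4 to Hoxa6, Hoxc5 with its neighbours, Hoxd3 with Hoxd4 and antisense pairs overlap, and their reads are uncertain. P-values set the difference of group means against the spread between libraries within groups, pooled over all groups. What that spread represents is not known, because the tumours or cell lines behind the libraries are not given. A few genes of the family and the lists stay in the totals and counts but are not reported here by name.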

Additional observations from a re-analysis of the deposited data

How the results depend on the processing

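For EV against control, 11 Hox genes were called higher in the main fit. With a minimum of 1 CPM in every library of a group 3 were, and 5 in a fit of only those groups. With 1 library left out 7 to 14 were. The members tested changed with these settings, so the numbers here and below are not lost or gained calls alone. Only Hoxa10, Hoxa13 and Hoxb9 were at or above 1 CPM in every EV library. Over all genes 4652 were called higher in the main fit, 4726 with the 1 CPM filter and 3632 in the fit of 2 groups. For MycT58A against control the 5 became 3 with the 1 CPM filter and ranged from 5 to 9 with 1 library left out. For MycT58A against EV the 2 called lower became 1 with no count filter, 1 with the 1 CPM filter, 1 in the fit of 2 groups and 5 with DESeq2, and ranged from 0 to 7 with 1 library left out. Companion genes in that comparison, 5 higher and 8 lower, became 3 higher with no count filter, 0 higher and 0 lower in the fit of 2 groups, and 8 higher and 17 lower with DESeq2; with 1 library left out they ranged from 0 to 12 higher and from 0 to 16 lower. Calls over all genes in MycT58A against EV, 1259 in the main fit, numbered 34 in the fit of 2 groups and 3446 with DESeq2. With 1 library left out they ranged from 36 to 4032. Group means at or above 1 CPM numbered 19 in EV and from 7 to 21 with 1 EV library left out. In MycT58A they numbered 1, and from 1 to 3 with 1 MycT58A library left out. Hoxb2 in MycT58A against EV turned from -3.59 to 0.81 with limma-voom and ranged from -4.17 to 3.35 with 1 library left out, positive only without the library labelled EV replicate 3. Hoxb3 turned from -1.89 to 0.27 and ranged from -2.47 to 1.79 in the same way. The cause was not tested. Scaling by library size alone moved the median of all genes in MycT58A against EV from -0.04 to -0.16 and the share of higher calls from 39.6% to 24.8%; limma-voom gave 58.4%. No paired analysis was possible because the replicate numbers used here only follow the order of the samples, and no label ties libraries of different groups together. At 0.103 to 0.170 CPM per 3 counts, differences among silent Hox genes were not detectable at this depth.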
